A study of Mus musculus with 9 samples.

Results

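Skin of mice that received imiquimod (IMQ) cream together with Longkui Yinxiao soup (LYS) was compared with skin of control mice, over all genes of the deposited table. The comparison used the 3 LYS and the 3 control libraries, 6 of the 9 libraries of the series, and 16003 of the 29205 genes were tested after a filter on low counts. The 3 libraries of the IMQ group were used to say which genes the cream had moved in mice without LYS. All mice were male BALB/c, aged 6 to 8 weeks, with no genetic change named in the labels. The back of every mouse, controls included, was shaved and treated with depilatory cream. Control mice were labelled blank and received no IMQ and no LYS. The IMQ and LYS groups received 62.5 mg of a 5% IMQ cream on the back each day for 5 days, and the LYS group was also given LYS by gavage, at the higher dose of the study according to its methods, since the labels give no dose. Back skin was taken on day 13. The series holds no libraries of mice given LYS without IMQ, so all LYS values are those of skin that also received the cream.

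IMQ is an agonist of the Toll-like receptor TLR7, and its cream on mouse skin is a widely used model of psoriasis. In psoriasis, dendritic cells release IL-23, T cells answer with IL-17 and IL-22, and keratinocytes respond with chemokines that draw neutrophils, with antimicrobial peptides, and with a thickened and altered cornified layer. Depilation of resting mouse skin is known to start a new growth phase of the hair follicles. In this phase the follicle makes hair keratins while the fat layer under it expands. LYS is a decoction of several botanical drugs that is given to patients with psoriasis.

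The libraries held between 14658645 and 19609878 counts, and their 20 most abundant genes took 8.66% to 14.4% of them. Library size factors (TMM) ranged from 0.79 to 1.2. The defining genes of skin were present in every library, with the basal keratin Krt14 at 709 to 1130 CPM (counts scaled to library size) in control and 4900 to 8530 CPM in LYS skin. The dermal collagen Col1a1 stood at 5610 to 7530 CPM in control and 2120 to 4380 CPM in LYS skin. Values below are CPM on the TMM scale, always in the order of libraries 1, 2 and 3, and fold changes are log2 values of LYS against control unless stated otherwise.

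A gene was called changed at an adjusted p under 0.05 (edgeR quasi-likelihood test, Benjamini-Hochberg) with an absolute log2 fold change over 0.58, which is 1.5-fold. In LYS skin 4476 genes were changed from control, 28% of those tested, of which 2412 were higher (15.1%) and 2064 lower (12.9%). Without adjustment, 7092 genes had a p under 0.05. The LYS and control libraries did not overlap for 4430 of the 4476 changed genes, while 50.3% of all genes tested did not overlap. Scaling to library totals alone gave 1917 higher and 2706 lower genes, with a median of all genes at -0.15 in place of -0.0077. Left-out libraries changed the count to 2579 without Control 1, 2947 without Control 2 and 2926 without LYS 2.

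**Figure D1:**
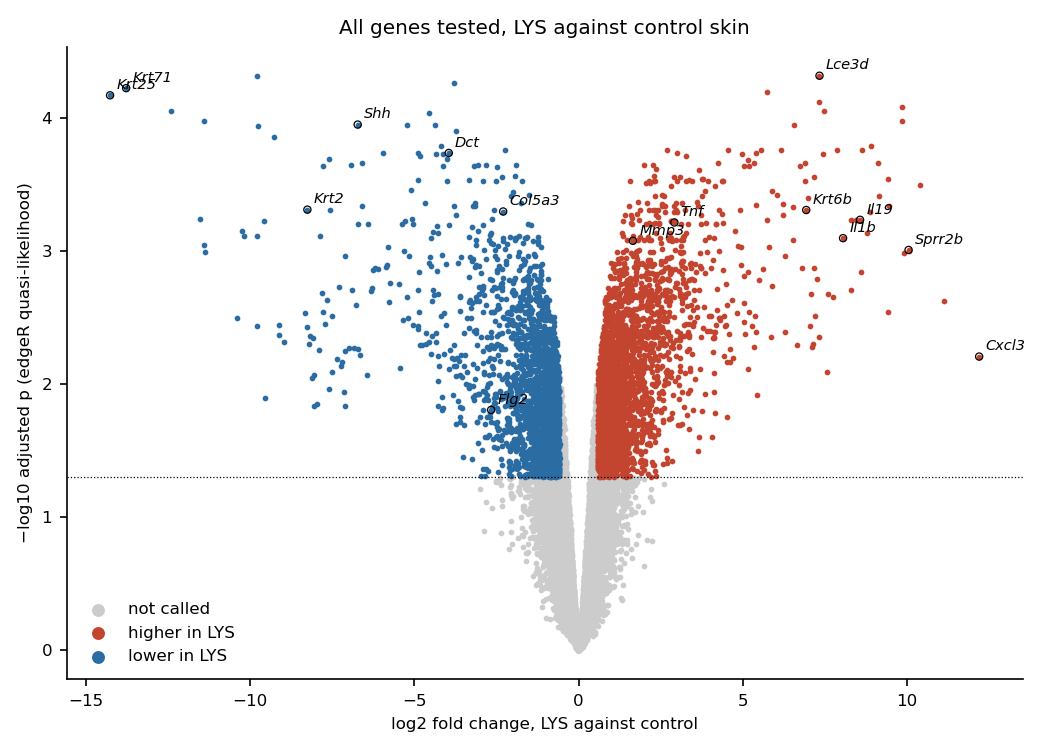
Each point is 1 of the 16003 genes tested, with the log2 fold change of LYS against control on the x axis and the -log10 of the edgeR adjusted p on the y axis. Red points are the 2412 higher genes, blue points the 2064 lower genes and grey points the genes not called, and the dotted line marks an adjusted p of 0.05. The hair keratins Krt25 and Krt71 lie farthest to the left and Cxcl3 lies farthest to the right.

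IMQ without LYS changed 8145 of 15976 genes from the same control libraries, 3854 upward (24.1%) and 4291 downward (26.9%). Scaling to library totals alone, which moved the median of all genes to -0.51, gave 9244 changed genes of which 2390 were higher. Of these 8145 genes, 3809 (46.8%) were changed the same way in LYS skin. That was 1992 of the genes raised by IMQ (51.7%) and 1817 of the lowered genes (42.3%), against 1462 and 2587 with library totals only. Over all genes tested, 15.1% were higher and 12.9% lower in LYS skin. Both comparisons use the same control libraries, whose own spread moves genes the same way in both, so these shares do not measure likeness. A further 2196 genes (27%) lay within 2-fold of control in LYS skin and were not called changed, by 2 one-sided quasi-likelihood tests against log2 fold changes of -1 and 1. They were 1077 of the raised genes (27.9%) and 1119 of the lowered genes (26.1%), against 395 and 2165 with library totals only. Over all genes tested, 7626 (47.7%) met the same rule. This bound of 1 is wider than the 0.58 beyond which an IMQ change was called. At an absolute log2 fold change over 1, IMQ changed 5772 genes. A gene among the 2196 can thus have lain within 2-fold of control in IMQ skin too. Of the 8145 genes, another 10 were changed in the opposite direction, 168 were not tested in LYS against control, and 1962 met neither rule. No gene passed the stricter bound of 0.58 by the edgeR tests, where the smallest adjusted p was 0.0731, and in data simulated at this size no unchanged gene passed it either, so this count says nothing of these genes. Without adjustment, 618 of the 8145 genes and 4082 of all genes passed that bound, and 91 of the 8145 passed it with adjustment in a fit of all 9 libraries. Genes still changed numbered 2284 without Control 1, and genes within 2-fold numbered 1369 without Control 1.

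A set of 35 gene lists covering skin compartments, immune cells and signalling was followed through both comparisons, with 806 of 821 listed genes found in the table. The comparisons of LYS and of IMQ with control share the control libraries, so their values are given side by side without a measure of their likeness. Calls of genes and list members between LYS and IMQ skin come from the fit of 9 libraries alone and are not given in other settings. The set of 204 genes described below, which needs that contrast, fell to 0 with the contrast fitted on 6 libraries. The median over all genes was -0.0077 in LYS and -0.062 in IMQ against control. Counts of list members are to be read beside all genes tested in LYS against control, of which 15.1% were higher, 12.9% lower and 47.7% within 2-fold. A listed or named gene near 0 in 1 group could pass the filter on low counts only through the group where it was high. The direction of its call was then set by the filter.

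**Figure D2:**
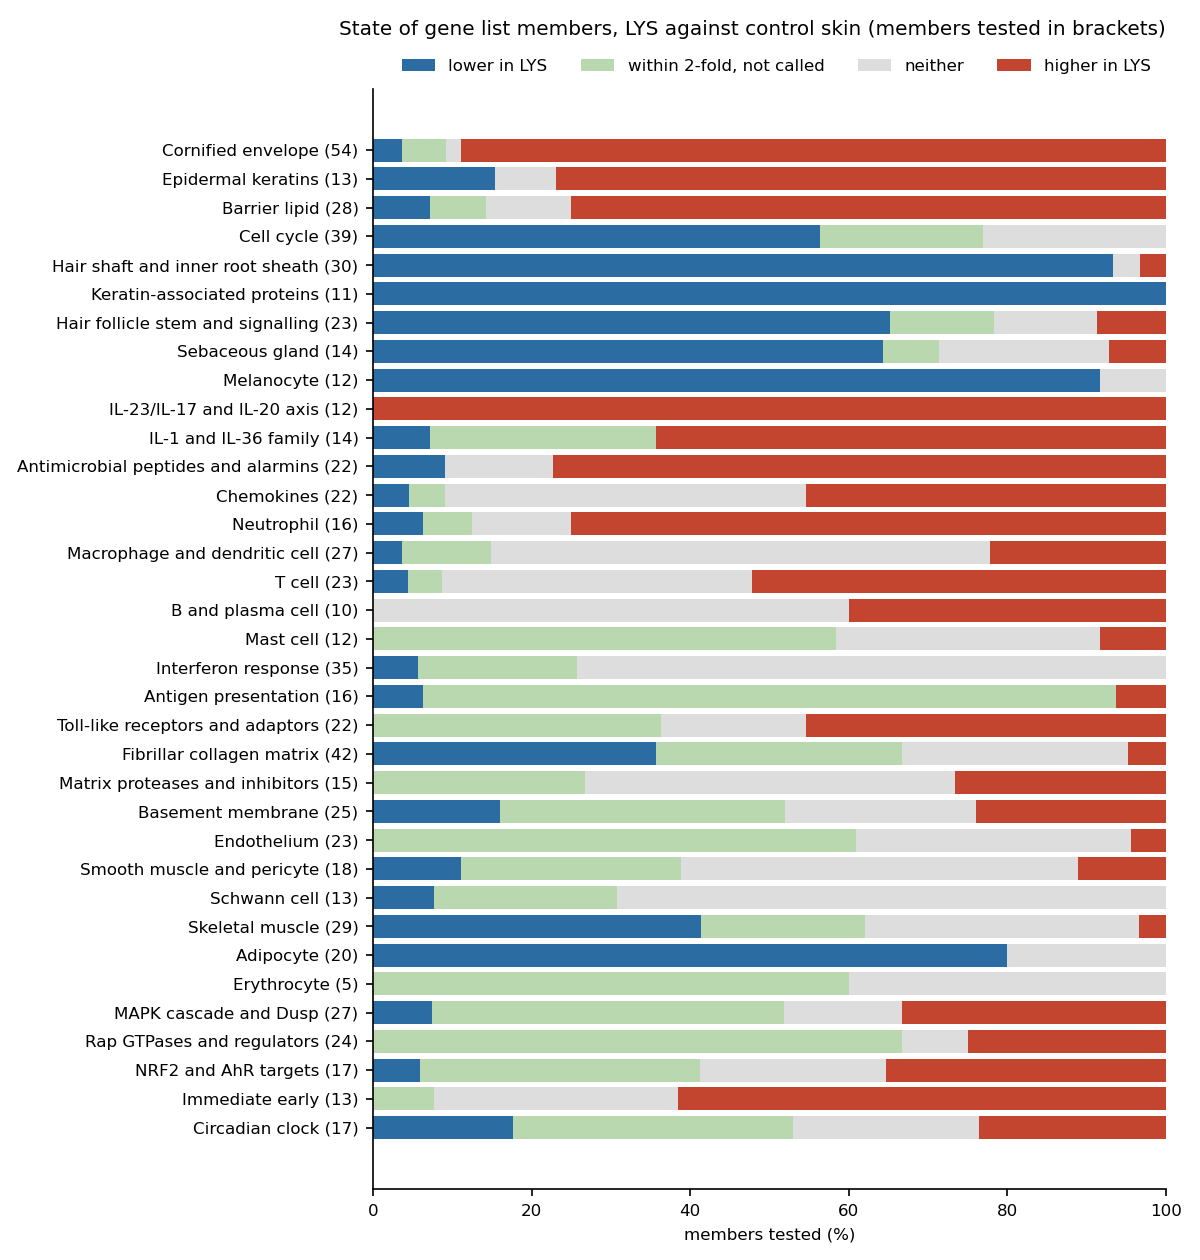
Bars show, for each of the 35 gene lists, the percentage of its tested members that were lower in LYS than in control skin (blue), within 2-fold of control and not called (green), neither (grey) or higher (red), with the number tested in brackets. Epidermal and cytokine lists are mostly red, hair, pigment and fat lists mostly blue, and endothelial, mast cell and antigen presentation lists mostly green.

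The largest falls from control were those of hair genes, and they had not come back under LYS. Of the 30 tested members of the list of hair shaft and inner root sheath genes, 28 were lower and 1 was higher in LYS skin, and 27 were lower in IMQ skin. Some members, such as Krt26 and Krt35, passed the filter on low counts through the control libraries where they are high. The count of lower members and the list median were thus partly set by the filter. The summed level of the list was 2830 to 6110 CPM in control, 80.8 to 116 CPM in IMQ and 38.6 to 79.1 CPM in LYS libraries. The list median was -6.84 as fitted and -6.47 with members that had no count in the LYS group set to their bound. Members with 1 to 3 counts kept their fitted values. In bulk skin, fewer cells of a type and less RNA per cell cannot be told apart, here and for each cell type below.

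Krt25, a keratin of the inner root sheath, was at 991, 605 and 1200 CPM in the control libraries and at 0, 0 and 0.115 CPM in the LYS libraries. The LYS group held 2 counts in all against 58223 in control, which is a 22900-fold difference with a 95% counting interval of 6340 to 189000 (edgeR adjusted p = 6.75e-05). Its partner Krt71 stood at 1190, 772 and 1750 CPM in control and at 0.14, 0.0565 and 0.0573 CPM in LYS skin, a log2 fold change of -13.78 ± 0.56 (SE, adjusted p = 5.96e-05). Control and LYS libraries did not overlap for either gene, which the rule that named them required. Krt26, also of the inner root sheath, had no count in the LYS libraries and was at least 299-fold lower (adjusted p = 0.000902). Krt35, a keratin of the hair cortex, had 1 count against 9189, a ratio of 7230 with an interval of 1300 to 286000. The forkhead factor Foxe1 had no count in LYS skin and was at least 326-fold lower, and the unnamed gene model Gm49425 had 1 count against 4608. None of these 6 genes was called between LYS and IMQ skin in the edgeR fit of 9 libraries (adjusted p of 0.382 to 1).

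Trichohyalin (Tchh), which hardens the inner root sheath, was at 760, 484 and 1290 CPM in control and at 24.5, 29.2 and 9.4 CPM in LYS skin (-5.32 ± 0.56, adjusted p = 0.000996). Hoxc13, a transcription factor that drives hair keratin genes, fell from 26.2, 22.1 and 42.4 CPM to 2.37, 1.07 and 0.573 CPM (-4.52 ± 0.49, adjusted p = 0.0011). The groups were apart for both. The 1 higher member was Krt84, a keratin known from nail and tongue, at 0.676, 1.02 and 0.925 CPM in control and 4.4, 3.05 and 8.31 CPM in LYS skin (2.58 ± 0.43, adjusted p = 0.00483). It was lower in LYS than in IMQ skin. Of 33 keratin-associated protein genes found, whose products crosslink hair keratins, 11 passed the filter on low counts, through the control libraries where they are high, so the 11 lower calls among them were set by the filter. Krtap8-1 was at 7.58, 2.31 and 7.99 CPM in control and at 0 in each LYS library, at least 97.3-fold lower. Krtap genes and hair keratins belong to families of near-identical copies, between which reads can be split.

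In the promoters of the 7 inner root sheath keratins that matched RefSeq (GRCm38.p6), the letters CTTTGA, the core of LEF and TCF binding motifs that carry Wnt signals to hair genes, were found on either strand within 250 bases before the start in 1 of 7 of the 8 listed. They were found in 14.0% of 27025 promoters of the same length. The absence of these letters says nothing of the factors.

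In the list of follicle stem cell and signalling genes, 15 of 23 were lower and 2 higher in LYS skin, against 18 lower and 1 higher in IMQ skin. Their median was -1.89 in LYS and -2.21 in IMQ skin. The summed level was 1160 to 1300 CPM in control and 461 to 594 CPM in LYS libraries, with no overlap. Shh, the hedgehog ligand that drives follicle growth, was at 21.3, 20.9 and 24.6 CPM in control and at 0.279, 0.0565 and 0.287 CPM in LYS skin (-6.73 ± 0.36, adjusted p = 0.000112). Lgr5, a marker of follicle stem cells, went from 24.1, 18.8 and 28.9 CPM to 4.26, 2.43 and 2.81 CPM (-2.92 ± 0.28, adjusted p = 0.000639). Both were low in each LYS library. Krt15, a keratin of the bulge, was at 96, 40.1 and 61.5 CPM in LYS skin against 182, 170 and 238 CPM in control (-1.57 ± 0.32, adjusted p = 0.00956). Wnt10a, a Wnt ligand, was higher (1.28 ± 0.37, adjusted p = 0.0335), a call that was lost without Control 1, Control 2, LYS 1 or LYS 2 and with library totals only (adjusted p up to 0.117).

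All 12 tested melanocyte genes were lower in IMQ skin and 11 of 12 were lower in LYS skin, with medians of -4.0 and -4.16. Their summed level was 494 to 689 CPM in control, 34.5 to 72.9 CPM in IMQ and 65.1 to 140 CPM in LYS libraries. Dct, an enzyme of melanin synthesis, stood at 124, 114 and 181 CPM in control and at 6.98, 9.83 and 10.1 CPM in LYS skin (-3.95 ± 0.24, adjusted p = 0.000183). Pmel, the scaffold of the melanosome, was at 66.2, 67.7 and 105 CPM and at 5.09, 3.84 and 5.96 CPM in LYS skin (-4.0 ± 0.26, adjusted p = 0.000204). Control and LYS libraries were far apart for both. Oca2, a melanosome transporter, had 3 counts in LYS skin against 356 in control, a ratio of 93.4 with an interval of 31.7 to 455.

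Sebaceous gland genes were lower for 9 of 14 members in LYS skin and for 12 of 14 in IMQ skin, with 1 higher in each. Scd3, a fatty acid desaturase of sebocytes, was at 97.7, 90.4 and 115 CPM in control and at 7.54, 1.36 and 1.43 CPM in LYS skin (-4.91 ± 0.63, adjusted p = 0.00195). Mc5r, a melanocortin receptor of the gland, was at 15.7, 16 and 16.7 CPM and at 4.05, 3.5 and 4.07 CPM (-2.06 ± 0.17, adjusted p = 0.000383). Scd1, the main desaturase of skin, was lower by -2.67 ± 0.45 (adjusted p = 0.0051). The elongase Elovl3 was at 45.6 CPM in LYS 1 and at 5.99 and 2.92 CPM in LYS 2 and 3, against 66.7 to 88.7 CPM in control, and was not called (adjusted p = 0.106). Without LYS 1 it was called. Acsbg1, an acyl-CoA synthetase, was the 1 higher member at 261, 129 and 114 CPM against 63, 53.4 and 86.1 CPM (1.32 ± 0.34, adjusted p = 0.0241), and its call was lost without Control 1 or Control 2 (adjusted p up to 0.0897).

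Of 39 cell cycle genes, 22 were lower and 0 were higher in LYS skin, while 31 were lower and 0 higher in IMQ skin, with medians of -0.87 and -0.99. By edgeR at an unadjusted p under 0.05, and by DESeq2, 0 members were higher in LYS skin. Top2a, the topoisomerase of dividing cells, was at 221, 160 and 204 CPM in control and 109, 74.6 and 49 CPM in LYS skin (-1.32 ± 0.29, adjusted p = 0.0136). Mki67, the proliferation marker, was at 276, 165 and 258 CPM in control and 164, 116 and 76.3 CPM in LYS skin (-0.97 ± 0.31, adjusted p = 0.0487). The groups did not overlap, although the nearest libraries of Mki67 were at 164 and 165 CPM. The call of Top2a was lost without LYS 2 (adjusted p = 0.0554), and that of Mki67 without Control 1, Control 3, LYS 2 or LYS 3 (adjusted p up to 0.133). The 22 lower members became 5 without Control 1, 14 without Control 2, 8 without Control 3, 3 without LYS 2 and 34 without LYS 1. Hair follicle genes fell in the same libraries, and the share of follicle cells among dividing cells was not tested.

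Genes of the epidermal surface stayed above control. Of 54 cornified envelope genes tested, 48 were higher and 2 lower in LYS skin, and 33 of the 54 were lower in LYS than in IMQ skin, with none higher. The median was 2.43 in LYS and 3.67 in IMQ skin against control. The summed level was 3030 to 4860 CPM in control, 45200 to 72600 CPM in IMQ and 19100 to 34100 CPM in LYS libraries, with no overlap between groups. In the LYS minus IMQ contrast over all 9 libraries, 8.62% of 16392 genes were lower and 9.93% were higher.

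Sprr2b, a small proline-rich protein that strengthens the envelope, was at 0.338, 0.323 and 2.43 CPM in control and at 1590, 1340 and 332 CPM in LYS skin (10.05 ± 1.06, adjusted p = 0.00098). LYS 3 was the lowest of the LYS libraries, yet was far over each control library. The rule that named Sprr2b required that LYS and control libraries did not overlap. Lce3d, a late cornified envelope protein, was at 0.869, 0.924 and 1.17 CPM in control and at 186, 171 and 122 CPM in LYS skin (7.34 ± 0.26, adjusted p = 4.81e-05). Sprr1b, at 32.8, 17.8 and 34.8 CPM in control, was at 844, 1040 and 775 CPM in LYS skin (4.96 ± 0.32, adjusted p = 0.000186). Lce3d was lower in LYS than in IMQ skin, where it was at 224, 278 and 259 CPM, while Sprr1b was not called in that contrast. Sprr2j-ps, named as a pseudogene of this family, rose with them, with 3 counts in control against 3558 in LYS skin, and Sprr2 members share sequence so that reads can be split between them.

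Loricrin (Lor), the bulk protein of the envelope, was at 363, 331 and 628 CPM in control, 3350, 7420 and 9500 CPM in IMQ and 2770, 818 and 1950 CPM in LYS skin (2.07 ± 0.47, adjusted p = 0.0143). Involucrin (Ivl), an early envelope protein, was at 87.4, 41.8 and 86 CPM in control and 339, 273 and 309 CPM in LYS skin (2.10 ± 0.29, adjusted p = 0.00241). Filaggrin (Flg), which bundles keratin and feeds the moisture of the surface, was higher by 1.88 ± 0.39 (adjusted p = 0.011). All of these were lower in LYS than in IMQ skin. The call of Lor was lost without Control 1 or Control 2 (adjusted p up to 0.069), and that of Flg without Control 1 (adjusted p = 0.0533). Flg2, a relative of filaggrin, went the other way and was at 222, 132 and 267 CPM in control and 50.5, 7.85 and 39.3 CPM in LYS skin (-2.66 ± 0.62, adjusted p = 0.0156). It was lower in IMQ skin too, and its call was lost without Control 1 (adjusted p = 0.0541), which left 1 lower member of the list.

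Epidermal keratins were higher for 10 of 13 members and lower for 2 in LYS skin, against 11 and 2 in IMQ skin. Krt6b and Krt16, the stress keratins of wounded and psoriatic epidermis, showed the widest rises. Krt6b was at 22.3, 14.4 and 53.2 CPM in control and at 4600, 3610 and 2730 CPM in LYS skin (6.93 ± 0.60, adjusted p = 0.000491). Krt16 was at 37.5, 24.5 and 71.9 CPM in control and at 4630, 3250 and 2070 CPM in LYS skin (6.22 ± 0.56, adjusted p = 0.000536). Neither was called between LYS and IMQ skin, where Krt6b was at 4980, 6920 and 3920 CPM. Krt6a, a near copy of Krt6b with which reads can be shared, was higher by 5.91 ± 0.47, and the basal keratin Krt14 by 2.82 ± 0.33 (adjusted p = 0.0014). Krt10 of the layers above was closer to control, at 5000, 2960 and 3490 CPM against 1420, 1450 and 2670 CPM (1.05 ± 0.34, adjusted p = 0.0488), and it was lower than in IMQ skin. That call was lost with library totals only and without any 1 library but Control 3 (adjusted p up to 0.169). Krt17, a keratin of activated and follicular cells, was at 3290, 1500 and 611 CPM in LYS skin against 392 to 622 CPM in control. It was called (1.86 ± 0.56, adjusted p = 0.0383) although the groups overlapped, and the call was lost without any 1 library but LYS 3 (adjusted p up to 0.129). Krt2, a keratin of mature suprabasal cells, had 3 counts in the LYS and 1315 in the control libraries, a ratio of 345 with an interval of 118 to 1670. The 10 higher members became 5 without Control 1 and 6 without Control 2.

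Genes that make the lipids of the skin barrier were higher for 21 of 28 members and lower for 2, with a median of 1.46 in LYS and 2.56 in IMQ skin. In LYS against IMQ skin 23 of the 28 were lower. Abca12, the transporter that loads lipids into lamellar bodies, was at 88.9, 60.7 and 122 CPM in control, 924, 1180 and 1110 CPM in IMQ and 620, 476 and 308 CPM in LYS skin (2.38 ± 0.34, adjusted p = 0.00288). Each LYS library lay between the control and the IMQ libraries. Degs2, a hydroxylase of ceramide synthesis, was at 6.13, 6.01 and 8.13 CPM in control and 128, 86.4 and 67.6 CPM in LYS skin (3.80 ± 0.28, adjusted p = 0.000286). Cers3, the ceramide synthase of the very long chains, was higher by 2.08 ± 0.31, and the lipoxygenases Alox12b and Aloxe3 by 2.70 ± 0.37 and 2.16 ± 0.27. Alox12e, another epidermal lipoxygenase, was lower by -2.65 ± 0.60 (adjusted p = 0.015), with its call lost without LYS 2 (adjusted p = 0.0512). The 2 lower members became 0 without LYS 2 and 1 without any other library but LYS 1.

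**Figure D3:**
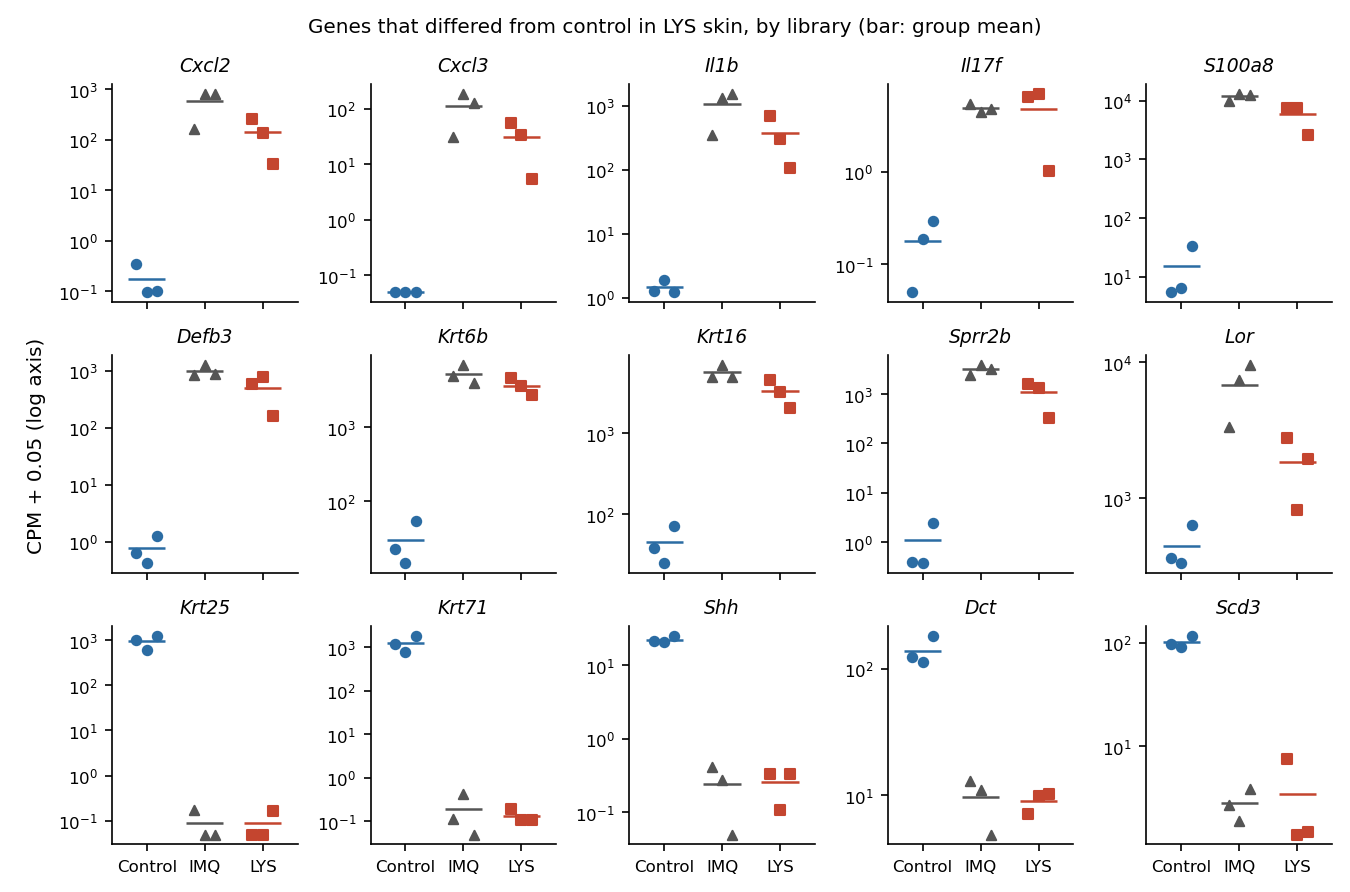
Each panel gives the CPM of 1 gene in the 9 libraries on a log axis after adding 0.05 CPM, with blue circles for control, grey triangles for IMQ and red squares for LYS, and a bar at the group mean. In the upper 10 panels each LYS library is above all control libraries, and in the lower 5 panels each LYS library is below all control libraries. LYS 3 is the lowest LYS library for all 5 genes of the top row.

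Of 20 genes of the IL-23, IL-17 and IL-20 list found, 12 passed the filter on low counts and were higher in LYS skin. Some of the 12, such as Il19 and Il17f, passed through the LYS libraries where they are high, so their count is no measure of the list. Of the 18 members tested between LYS and IMQ skin, 4 were lower in LYS skin. The filter on low counts kept Il23a, Il17a, Il22 and Il6 out of the LYS comparison, and the first 3 are given as counts. Il17a had 0, 0 and 1 counts in control and 89, 56 and 4 counts in LYS skin, a CPM ratio of 189 with an interval of 33.5 to 7530. Il22 had 0 counts in each control library and 32, 46 and 5 counts in LYS skin, at least 35.2-fold higher. LYS 3 was far below the other LYS libraries for both. Il23a, the specific subunit of IL-23, had 4, 1 and 0 counts in control and 98, 31 and 4 counts in LYS skin. Without LYS 3, 19 of the list's genes were higher, with no filter also 19, and by DESeq2 20.

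Il17f, the partner of IL-17A, was at 0, 0.139 and 0.243 CPM in control and at 6.49, 6.95 and 0.975 CPM in LYS skin (5.17 ± 0.98, adjusted p = 0.00766). Tnf was at 1.01, 0.647 and 0.828 CPM in control, 5.53, 16.8 and 15.7 CPM in IMQ and 6.56, 6.72 and 5.56 CPM in LYS skin (2.92 ± 0.27, adjusted p = 0.000609). No LYS library reached the control range for either. Il19, a keratinocyte cytokine induced by IL-17, had 1 count in control against 413 in LYS skin, a ratio of 525 with an interval of 93.7 to 20800. It was at 12.1, 9.32 and 4.24 CPM in LYS and 3.7, 5.36 and 4.18 CPM in IMQ skin, which was not called in the 9-library contrast.

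In the IL-1 and IL-36 family 9 of 14 members were higher, 1 was lower and 4 lay within 2-fold in LYS skin, against 12 higher and 2 lower in IMQ skin. Between LYS and IMQ skin 8 were lower and 2 higher. Il1b, which starts the cytokine cascade, was at 1.21, 1.85 and 1.17 CPM in control, 355, 1340 and 1540 CPM in IMQ and 707, 307 and 107 CPM in LYS skin (8.05 ± 0.81, adjusted p = 0.000799). Il36a, Il36g and Il36rn stand in the table under the older symbols Il1f6, Il1f9 and Il1f5. Il36a was at 16.2, 13.1 and 20.6 CPM in control and 269, 200 and 164 CPM in LYS skin (3.67 ± 0.26, adjusted p = 0.000247). Il36g was at 449, 304 and 182 CPM in LYS skin, against 18.2 to 33.4 CPM in control (3.69 ± 0.40, adjusted p = 0.00103). Every LYS library was above every control library for these 3 ligands. Il36rn, the natural antagonist of the IL-36 receptor, was also higher, by 2.82 ± 0.33 (adjusted p = 0.0014). Both IL-36 ligands and the antagonist were lower in LYS than in IMQ skin. The IL-1 receptor Il1r1 was the lower member, at 52.8, 68.2 and 55.1 CPM against 92 to 105 CPM in control (-0.73 ± 0.14, adjusted p = 0.00814), and it was higher than in IMQ skin. The 4 members within 2-fold became 1 without Control 1 and 2 without Control 2.

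Antimicrobial peptides and alarmins were higher for 17 and lower for 2 of the 22 members tested of 25 found in LYS skin, with medians of 4.08 in LYS and 4.37 in IMQ skin. Members such as Defb3 passed the filter on low counts through libraries where they are high, so the count is partly set by it. S100a8, which pairs with S100a9 to form calprotectin, was at 5.41, 6.37 and 33.8 CPM in control and 7560, 7460 and 2600 CPM in LYS skin (8.60 ± 1.02, adjusted p = 0.00144). S100a9 was at 10.5, 6.84 and 30.1 CPM in control and 9410, 8490 and 3080 CPM in LYS skin (8.80 ± 0.85, adjusted p = 0.000729). Neither was called between LYS and IMQ skin, although each LYS library was below each IMQ library. Defb3, a beta-defensin of inflamed epithelium, was at 0.58, 0.37 and 1.22 CPM in control and 584, 772 and 161 CPM in LYS skin (9.45 ± 0.80, adjusted p = 0.000458). Lcn2, which binds bacterial siderophores, was at 338, 409 and 163 CPM in LYS and 202, 500 and 191 CPM in IMQ skin, against 11.5 to 19.7 CPM in control (4.41 ± 0.41, adjusted p = 0.00062). Wfdc21, a whey acidic protein family member, was lower in LYS skin (-1.47 ± 0.18, adjusted p = 0.00175). The 2 lower members became 1 without Control 1, Control 2, LYS 1 or LYS 2.

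Chemokines that call neutrophils were among the largest rises. Of 22 chemokine genes tested of 27 found, 10 were higher and 1 was lower in LYS skin, against 9 higher and 7 lower in IMQ skin, and the medians were 1.19 and -0.15. Members such as Cxcl3 passed the filter on low counts through libraries where they are high, so these counts are partly set by it. Between LYS and IMQ skin 8 were higher and 2 lower. Cxcl3 had no count in any control library and was at 30.6, 185 and 125 CPM in IMQ and 54.7, 33.4 and 5.27 CPM in LYS skin, at least 622-fold higher than in control (adjusted p = 0.0062). Cxcl2 was at 0.29, 0.0462 and 0.0487 CPM in control and 257, 136 and 33.5 CPM in LYS skin (10.06 ± 1.07, adjusted p = 0.000996). LYS 3 was the lowest for both, and the LYS and IMQ libraries overlapped. Cxcl1 was at 0.58, 0.508 and 0.292 CPM in control and 6.56, 2.71 and 2.41 CPM in LYS skin (3.06 ± 0.52, adjusted p = 0.00513). Cxcl5 was at 14.7, 6.38 and 1.49 CPM in LYS skin, with 3 counts in control against 349, a ratio of 148 with an interval of 50.2 to 721. In IMQ skin Cxcl5 was at 4.37, 0.67 and 0.147 CPM. Ccl20, the ligand that draws Ccr6-bearing cells, was at 5.23, 0.96 and 0.516 CPM in LYS skin against 0.416 to 1.02 CPM in control and was not called (adjusted p = 0.159). Cxcl14, a chemokine of resting skin, was the lower member, at 44.5, 56.9 and 48.3 CPM against 76 to 98 CPM in control (-0.83 ± 0.15, adjusted p = 0.00676), and it was higher than in IMQ skin. The lower members numbered 4 without LYS 3 and 2 without LYS 1.

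Cxcl1, Cxcl2 and Cxcl3 lie in one cluster on chromosome 5 and rose together, so the 250 bases before the start of each are shown, from RefSeq (GRCm38.p6). Capitals mark matches, on either strand, to GGG, any 3 letters, then TTCC, an NF-kB motif through which inflammatory signals reach chemokine genes.
Cxcl1 (chr5:90890995-90891244, plus strand): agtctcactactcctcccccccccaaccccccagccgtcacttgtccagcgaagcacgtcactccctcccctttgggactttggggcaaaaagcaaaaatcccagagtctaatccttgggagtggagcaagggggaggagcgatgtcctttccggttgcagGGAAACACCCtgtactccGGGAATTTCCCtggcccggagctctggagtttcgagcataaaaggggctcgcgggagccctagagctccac
Cxcl2 (chr5:90903649-90903898, plus strand): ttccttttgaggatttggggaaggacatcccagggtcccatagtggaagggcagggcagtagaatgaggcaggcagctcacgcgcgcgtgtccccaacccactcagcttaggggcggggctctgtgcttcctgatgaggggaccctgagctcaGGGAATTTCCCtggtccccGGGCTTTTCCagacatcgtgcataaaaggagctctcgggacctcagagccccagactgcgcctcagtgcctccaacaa
Cxcl3 (chr5:90785851-90786100, plus strand): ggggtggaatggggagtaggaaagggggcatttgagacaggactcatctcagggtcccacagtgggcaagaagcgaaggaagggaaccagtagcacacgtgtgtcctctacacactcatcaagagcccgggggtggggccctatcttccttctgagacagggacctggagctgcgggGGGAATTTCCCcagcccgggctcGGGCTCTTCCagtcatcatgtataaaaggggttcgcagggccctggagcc
Each of the 3 windows held 3 matches, of which a pair was the same stretch read on both strands, and the motif was found in 4.6% of 27025 promoters of this length. A match is a description of letters and not evidence of binding in these samples. Cxcl5 had no entry.

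Neutrophil genes were higher for 12 and lower for 1 of the 16 members tested of 21 found in LYS skin, against 14 and 2 of 18 in IMQ skin, with medians of 3.35 and 4.78. Some members, such as Acod1, passed the filter on low counts through the libraries where they are high. The counts are thus partly set by the filter, and the medians are over different members. Their summed level was 194 to 294 CPM in control, 442 to 1370 CPM in IMQ and 457 to 835 CPM in LYS libraries. Cxcr2, the receptor for the chemokines above, was at 3.77, 3.93 and 4.33 CPM in control and 109, 62.3 and 31.8 CPM in LYS skin (4.09 ± 0.45, adjusted p = 0.00116). Csf3r, the receptor for granulocyte colony-stimulating factor, was at 219, 182 and 98.8 CPM in LYS and 76.2, 108 and 90.8 CPM in IMQ skin, against 14.5 to 20.9 CPM in control (3.28 ± 0.32, adjusted p = 0.000735). Csf3r was higher in LYS than in IMQ skin. Retnlg, a granule protein of mature neutrophils, was at 8.86, 17.1 and 7.51 CPM in LYS skin against 0.877 to 1.35 CPM in control (3.43 ± 0.40, adjusted p = 0.00133), and it was lower than in IMQ skin. Acod1, an enzyme of activated myeloid cells, was at 47, 33.8 and 5.27 CPM in LYS skin against 0.0462 to 0.241 CPM in control (7.75 ± 1.04, adjusted p = 0.00221). Mpo, made by immature neutrophils, was the lower member (-2.50 ± 0.69, adjusted p = 0.0302), a call that was lost without any 1 control library (adjusted p up to 0.0913). The defining surface gene Ly6g had only 13 counts in the LYS libraries and 2 in control.

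The rule on the largest changes also named a protease inhibitor and an enzyme of purine breakdown. Serpinb3d, of the epithelial serpins, had no count in control and 12.7, 25.4 and 6.48 CPM in LYS skin, at least 316-fold higher (adjusted p = 0.0024). Uox, urate oxidase, was at 0.193, 0.139 and 0.341 CPM in control, 302, 492 and 266 CPM in IMQ and 339, 281 and 37.8 CPM in LYS skin (9.91 ± 1.06, adjusted p = 0.00104). LYS 3 was again the lowest of its group for both. Both passed the filter on low counts through the LYS libraries where they are high. The rule that named them also required no overlap with control, so the direction of these calls is no separate result.

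Macrophage and dendritic cell genes were higher in LYS than in IMQ skin for 15 of 27 members, with none lower, while against control 6 were higher and 1 was lower. Their summed level was 1520 to 2070 CPM in control, 1420 to 1860 CPM in IMQ and 1880 to 3440 CPM in LYS libraries. Adgre1, a surface marker of macrophages, was at 213, 107 and 125 CPM in control and 160, 357 and 460 CPM in LYS skin, which was not called (1.14 ± 0.41, adjusted p = 0.0665). Csf1r, the receptor that keeps macrophages alive, was at 215, 399 and 473 CPM in LYS and 196 to 244 CPM in control skin (0.68 ± 0.28, adjusted p = 0.0994). In both cases LYS 1 lay within the control range and LYS 2 and 3 above it. Without LYS 1 both were called, and 15 members of the list were higher. Arg1, an enzyme of wound macrophages and of keratinocytes, was higher at 148, 59.6 and 20.8 CPM against 5.82 to 10.7 CPM (3.16 ± 0.67, adjusted p = 0.0114), with its call lost without Control 2 (adjusted p = 0.053). The 1 lower member was Mgl2. Mgl2, a lectin of dermal dendritic cells and macrophages, was at 8.3, 3.11 and 6.02 CPM in LYS skin against 14.2 to 24.1 CPM in control (-1.81 ± 0.37, adjusted p = 0.0101), and it was higher than in IMQ skin. Cd207, langerin of Langerhans cells, lay within 2-fold of control (0.039 ± 0.39, adjusted p of the bound test = 0.0441), at 22.4, 11.7 and 6.94 CPM against 11.7 to 15.2 CPM.

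T cell genes were higher for 12 of 23 members and lower for 1 in LYS skin, with a median of 1.26 against 0.57 in IMQ skin, and 5 were higher in LYS than in IMQ skin. The summed level, to which Thy1 belongs, was 251 to 290 CPM in control and 199 to 255 CPM in LYS libraries. Cd3e, of the T cell receptor complex, was at 0.966, 1.2 and 1.56 CPM in control and 4.05, 4.63 and 2.81 CPM in LYS skin (1.62 ± 0.32, adjusted p = 0.00881). Trdc, the constant chain of gamma-delta T cells that make IL-17 in mouse skin, was at 6.14, 7.8 and 4.76 CPM in LYS skin against 1.7 to 2.22 CPM in control (1.73 ± 0.27, adjusted p = 0.00397). It was at 3.95, 2.76 and 3 CPM in IMQ skin, below LYS skin in the 9-library contrast. Pdcd1, an inhibitory receptor of activated T cells, was at 5.79, 4.07 and 3.21 CPM against 0.241 to 0.508 CPM in control (3.56 ± 0.40, adjusted p = 0.00125). Foxp3 of regulatory T cells was at 1.47, 0.96 and 0.745 CPM against 0.277 to 1.27 CPM and was not called (adjusted p = 0.452). Thy1, which fibroblasts and nerves also express, was lower (-1.28 ± 0.17, adjusted p = 0.00235).

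Among 10 B and plasma cell genes tested of 17 found, 4 were higher in LYS skin. Jchain, which joins IgA and IgM, was at 3.19, 2.4 and 4.68 CPM in control, 0.729, 0.596 and 0.293 CPM in IMQ and 2.23, 27.7 and 22.4 CPM in LYS skin (2.35 ± 0.76, adjusted p = 0.0489). That call was lost without Control 1, 2 or 3, LYS 2 or LYS 3 and with either other scaling (adjusted p up to 0.164). Igkc, the kappa light chain, was at 8.11, 7.99 and 7.89 CPM in control and 2.93, 60.8 and 49.5 CPM in LYS skin and was not called (adjusted p = 0.075). LYS 1 lay below each control library for both and LYS 2 and 3 above. The 4 higher members became 11 without LYS 1, 1 without Control 1, Control 3 or LYS 2, and 2 without Control 2. The B cell receptor gene Cd79a had 19 counts in the LYS libraries and 33 in control.

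Of 12 tested mast cell genes, 7 lay within 2-fold of control in LYS skin, where 47.7% of all genes did, and 1 was higher, while 8 were lower in IMQ skin. In LYS against IMQ skin 9 of the 12 were higher. Cma1, a chymase of connective tissue mast cells, was at 54.5, 68.9 and 38.7 CPM in control, 22.9, 24.9 and 20.6 CPM in IMQ and 35.8, 55.2 and 62.4 CPM in LYS skin (-0.077 ± 0.26, adjusted p of the bound test = 0.0123). Mcpt4, a further chymase, was at 41.9, 55.2 and 70.7 CPM in LYS skin against 56.3 to 85 CPM in control (-0.37 ± 0.22, adjusted p of the bound test = 0.0267), and Cpa3, a granule carboxypeptidase, was at 27.8, 45.9 and 49.7 CPM against 37.9 to 66.7 CPM (-0.37 ± 0.27, adjusted p of the bound test = 0.0495). The LYS and control libraries overlapped for all 3. Hdc, which makes histamine and is also expressed by neutrophils, was the 1 higher member (2.67 ± 0.45, adjusted p = 0.00501). The 7 members within 2-fold became 2 without Control 1 or LYS 3, 3 without Control 2 or Control 3, 1 without LYS 2 and 4 with library totals only.

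Of 35 tested interferon genes, 0 were higher in LYS skin by edgeR, also at an unadjusted p under 0.05, or by DESeq2, 2 were lower, 7 lay within 2-fold and 26 met neither rule, while 3 were higher and 17 lower in IMQ skin. Isg15 was at 12.4, 12.1 and 15.4 CPM in control, 9.05, 47.7 and 53 CPM in IMQ and 10.1, 12.2 and 6.65 CPM in LYS skin (-0.45 ± 0.25, adjusted p = 0.197), and it was lower in LYS than in IMQ skin. Irf7, a factor that amplifies the response, was at 4.82, 43.7 and 69.3 CPM in LYS skin against 41.7 to 68.1 CPM in control, with LYS 1 far below the rest (adjusted p = 0.69). Oasl1 had the same order, at 0.977, 7.46 and 7.57 CPM against 4.59 to 5.89 CPM. Without LYS 1, 26 of the 35 genes lay within 2-fold of control. Lower members numbered 5 without LYS 3, 0 without Control 1 and 1 without Control 2, Control 3 or LYS 2, and 1 member was higher without LYS 1. Ifi27l2a was the largest fall, at 45.8, 63.3 and 120 CPM against 170 to 559 CPM in control (-2.40 ± 0.51, adjusted p = 0.0113), with its call lost without Control 1 (adjusted p = 0.0502).

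Antigen presentation genes had the highest share within 2-fold of control of the 35 lists, with 14 of 16, 1 higher and 1 lower. The lower call was lost without Control 1, Control 2, LYS 1 or LYS 2. H2-Ab1, of the class II complex, was at 271, 166 and 199 CPM against 142 to 179 CPM (0.42 ± 0.21, adjusted p of the bound test = 0.0296). Cd74, the invariant chain, was at 554, 509 and 535 CPM against 378 to 475 CPM (0.28 ± 0.16, adjusted p of the bound test = 0.00448). Ciita, the master regulator of class II genes, was higher (1.38 ± 0.29, adjusted p = 0.0117). IMQ skin had 3 higher and 3 lower members of the list, and 0 were called between LYS and IMQ skin. Among Toll-like receptors and their adaptors 10 of 22 were higher, 0 lower and 8 within 2-fold in LYS skin, and 10 were higher than in IMQ skin. Tlr2, the receptor for bacterial lipoproteins, was at 26, 37.1 and 51.7 CPM against 7.53 to 9.25 CPM in control (2.15 ± 0.26, adjusted p = 0.00147). Tlr7, the receptor that IMQ engages, was at 30.4, 23.9 and 20 CPM in control, 14.2, 7.89 and 5.64 CPM in IMQ and 10.5, 29.7 and 34.9 CPM in LYS skin (0.017 ± 0.39, adjusted p of the bound test = 0.0417). LYS 1 was in the IMQ range and the other LYS libraries in or above the control range. The adaptor Myd88 was higher at 86, 71.5 and 55.5 CPM against 28.6 to 29.2 CPM (1.30 ± 0.18, adjusted p = 0.00231). The 10 higher members became 6 without Control 1, and the 8 within 2-fold became 3 without Control 1 or Control 3, 4 without Control 2 or LYS 2 and 5 without LYS 3.

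**Figure D4:**
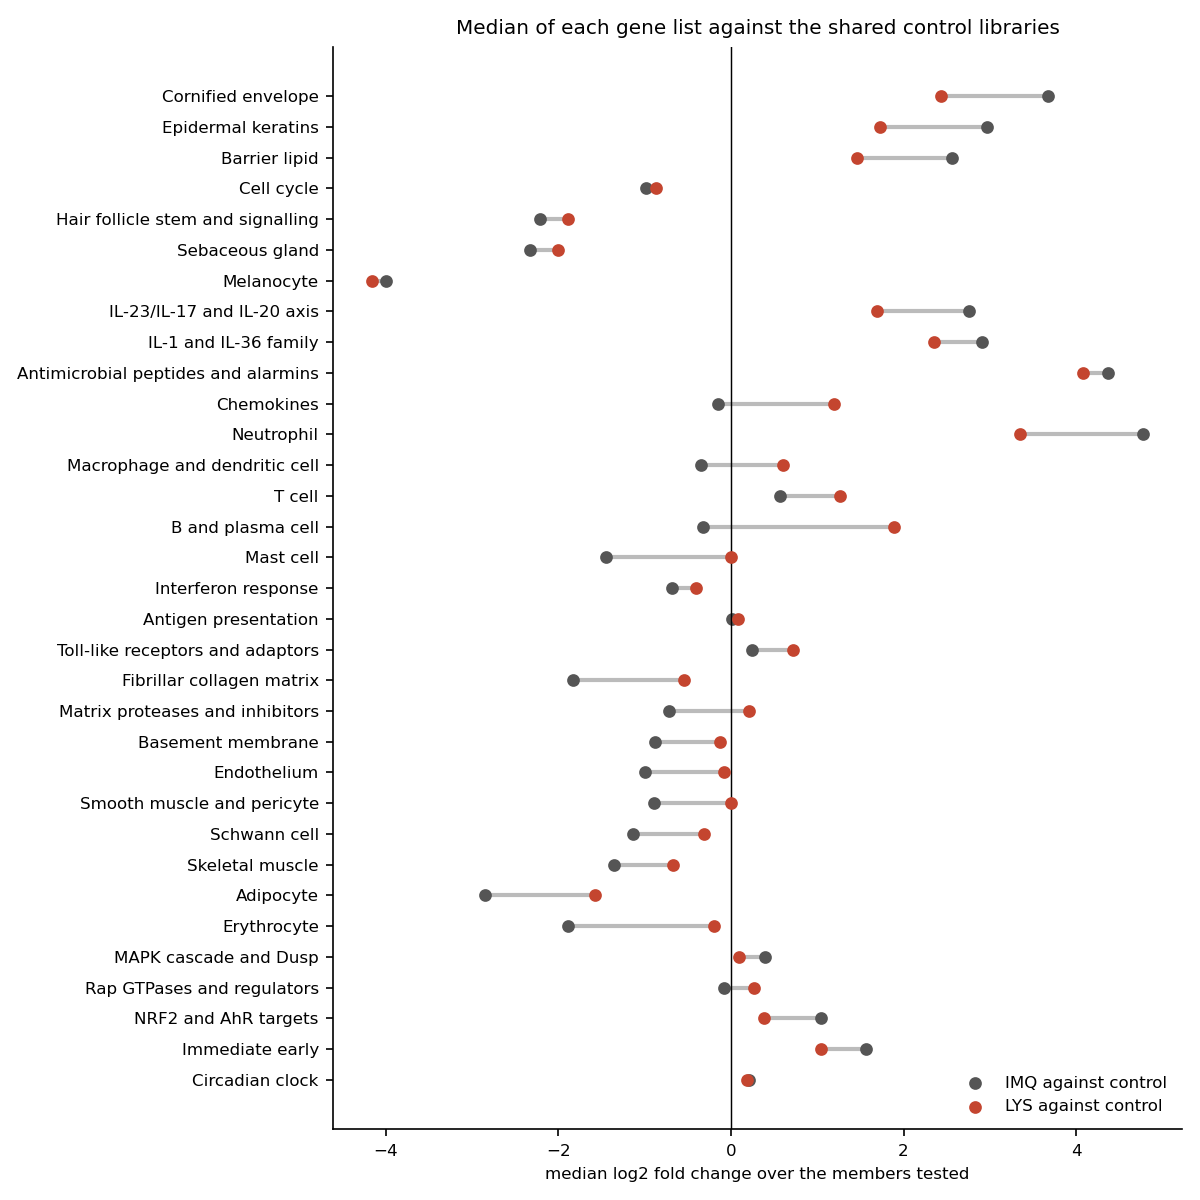
Points give the median log2 fold change over the tested members of each gene list, in IMQ (grey) and in LYS (red) skin against the shared control libraries, with a grey line joining the pair and a black line at 0. The 2 lists of hair shaft genes are left out because some members of each had no count outside control skin. Epidermal and cytokine lists stay on the right in both comparisons, while mast cell, endothelial and erythrocyte lists are near 0 in LYS skin.

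Of 42 genes of fibrillar collagen matrix, 38 were lower in IMQ skin, and in LYS skin 15 were lower, 2 higher and 13 within 2-fold of control. The median was -0.54 in LYS and -1.83 in IMQ skin, and 30 of the 42 were higher in LYS than in IMQ skin. The summed level was 34500 to 42700 CPM in control, 5320 to 15600 CPM in IMQ and 14400 to 27300 CPM in LYS libraries. Col1a1, the main chain of type I collagen, was at 2120, 3650 and 4380 CPM in LYS skin against 5610 to 7530 CPM in control (-1.01 ± 0.32, adjusted p = 0.0446). That call was lost without Control 1, 2 or 3 or LYS 2 (adjusted p up to 0.129). Col3a1 was at 3660, 5410 and 6520 CPM against 8200 to 10200 CPM and was not called (-0.79 ± 0.29, adjusted p = 0.0708). Both were below control in each LYS library, and neither was called between LYS and IMQ skin. Col5a3, a chain of type V collagen, was the largest fall of the list, at 48.4, 45.9 and 67.9 CPM against 228 to 307 CPM (-2.30 ± 0.20, adjusted p = 0.000504). Decorin (Dcn), which spaces collagen fibrils, was within 2-fold at 867, 1480 and 1580 CPM against 1340 to 1750 CPM (-0.23 ± 0.26, adjusted p of the bound test = 0.0247), and elastin (Eln) at 122, 146 and 216 CPM against 164 to 214 CPM (-0.22 ± 0.22, adjusted p of the bound test = 0.0126). Podocan (Podn) was higher than control (1.21 ± 0.25, adjusted p = 0.00989), with its call lost without Control 1 (adjusted p = 0.0591). The 15 lower members became 8 without Control 1, Control 2 or LYS 2, the 13 within 2-fold became 8 without any 1 control library, and the 2 higher became 0 without Control 1, 5 without LYS 1 and 1 without any other library.

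Matrix proteases were higher for 4 of 15 members and lower for 0 in LYS skin (4 lower by edgeR at an unadjusted p under 0.05, and 7 higher and 3 lower by DESeq2), while 2 were higher and 7 lower in IMQ skin. Mmp3, stromelysin, was at 44.7, 57 and 56.5 CPM in control, 140, 54.1 and 50.9 CPM in IMQ and 166, 189 and 141 CPM in LYS skin (1.66 ± 0.17, adjusted p = 0.000837). Mmp13, a collagenase, was at 9.77, 5.2 and 6.08 CPM against 0.292 to 1.11 CPM (3.60 ± 0.53, adjusted p = 0.00315). All 3 LYS libraries were above control for both. Mmp9 was higher by 2.19 ± 0.52 (adjusted p = 0.017), with its call lost without Control 2 (adjusted p = 0.0508). The inhibitor Timp1 was at 26.7, 23 and 11.5 CPM against 11 to 12 CPM and was not called (adjusted p = 0.0661), though it was called without LYS 3. The 4 members within 2-fold became 2 without any 1 control library or LYS 2, lower members numbered 2 without LYS 1 and 1 without Control 3 or LYS 3, and the median of 0.21 became -0.15 without LYS 3.

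Basement membrane genes went both ways, with 6 higher, 4 lower and 9 within 2-fold among 25 tested. The hemidesmosome collagen Col17a1, a basal keratinocyte gene, was at 307, 233 and 224 CPM against 98.5 to 162 CPM (1.08 ± 0.24, adjusted p = 0.0138), with its call lost without Control 1 or Control 2 (adjusted p up to 0.0636). Lamb3, a laminin chain of the same layer, was higher by 1.60 ± 0.34 (adjusted p = 0.012), a call lost without Control 1 (adjusted p = 0.0559). Nid2, a linker protein of vessel and nerve basement membranes, was lower at 37, 43.1 and 54.5 CPM against 97.3 to 112 CPM (-1.24 ± 0.16, adjusted p = 0.00205), and higher than in IMQ skin. The counts of 6 higher and 4 lower became 1 and 2 without Control 1, 3 and 2 without Control 2, and lower members numbered 2 without LYS 2 and 10 without LYS 3.

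Of 23 endothelial genes tested, 14 (60.9%) lay within 2-fold of control, where 47.7% of all genes did, and 1 was higher in LYS skin, while 18 were lower in IMQ skin and 15 were higher in LYS than in IMQ skin. The median was -0.08 in LYS and -0.99 in IMQ skin. The summed level was 1160 to 1620 CPM in control, 460 to 956 CPM in IMQ and 987 to 1750 CPM in LYS libraries. Pecam1, an adhesion molecule of endothelium, was at 172, 195 and 136 CPM in control and 123, 228 and 237 CPM in LYS skin (0.23 ± 0.26, adjusted p of the bound test = 0.0239). Cdh5, the cadherin of endothelial junctions, was at 70.6, 122 and 134 CPM against 97.8 to 140 CPM (-0.18 ± 0.25, adjusted p of the bound test = 0.0173). LYS 1 was the lowest for both. Vwf, which tethers platelets, was at 71.2, 189 and 197 CPM against 60.5 to 74.6 CPM, with LYS 1 inside the control range, and was the called member (1.14 ± 0.35, adjusted p = 0.0405), a call lost without Control 1, 2 or 3, LYS 2 or LYS 3 and with library totals only (adjusted p up to 0.128). Without LYS 1, 5 members were higher, and without Control 1, 9 lay within 2-fold.

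Smooth muscle and pericyte genes had 2 higher, 2 lower and 5 within 2-fold among 18 tested, against 1 higher and 10 lower of 17 in IMQ skin. In LYS skin that was 22.2% changed and 27.8% within 2-fold, where all genes were 28% and 47.7%. Rgs5 of pericytes was at 116, 191 and 220 CPM against 145 to 190 CPM (0.026 ± 0.24, adjusted p of the bound test = 0.00701). Cspg4, the NG2 proteoglycan of pericytes, was lower at 22.1, 25.1 and 29.1 CPM against 65.8 to 71.7 CPM (-1.44 ± 0.14, adjusted p = 0.000642). Notch3, a receptor of mural cells, was higher at 200, 192 and 167 CPM against 91.3 to 107 CPM (0.92 ± 0.14, adjusted p = 0.0035). The 5 within 2-fold became 3 without Control 1, Control 2 or LYS 2 and 8 without LYS 1, the 2 higher members became 4 without LYS 1 and 1 without Control 1, and the 2 lower became 4 without LYS 3. Erythrocyte genes, a measure of blood in the tissue, were lower for 5 of 5 members in IMQ skin and for 0 of 5 in LYS skin by edgeR (1 at an unadjusted p under 0.05 and 1 by DESeq2), and 5 of 5 were higher in LYS than in IMQ skin. Hba-a1, an alpha globin, was at 268, 215 and 103 CPM in control, 51, 102 and 44.3 CPM in IMQ and 271, 224 and 147 CPM in LYS skin. The 3 erythrocyte genes within 2-fold became 1 or 0 without any 1 library but LYS 1. Globin copies share reads.

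Of 13 Schwann cell genes 1 was lower and 3 were within 2-fold in LYS skin, while 9 were lower in IMQ skin. The 1 lower member was Gldn, gliomedin, at 4.33, 5.03 and 6.88 CPM against 19.2 to 20.2 CPM (-1.85 ± 0.20, adjusted p = 0.00108). Lower members became 3 without LYS 1 and 5 without LYS 3, and those within 2-fold became 7 without LYS 1, 1 without Control 1 or Control 3 and 0 without Control 2.

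Skeletal muscle genes were lower for 12 of 29 members and higher for 1 in LYS skin, and lower for 20 in IMQ skin, with medians of -0.67 and -1.36. Their summed level was 16500 to 18200 CPM in control, 3320 to 9030 CPM in IMQ and 7750 to 15100 CPM in LYS libraries. Pvalb, the calcium buffer of fast fibres, was at 184, 67.2 and 169 CPM against 433 to 570 CPM (-1.89 ± 0.36, adjusted p = 0.00824). Myh4, a fast myosin, was at 687, 1690 and 2760 CPM against 1950 to 2610 CPM and was not called (adjusted p = 0.549). Titin (Ttn) was the 1 higher member (1.56 ± 0.38, adjusted p = 0.0191), a call lost without Control 1, Control 2 or LYS 2 (adjusted p up to 0.0875). The 12 lower members became 5 without Control 1, 7 without Control 2, 6 without LYS 2 and 19 without LYS 3.

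Adipocyte genes were lower for 16 of 20 members in LYS skin and 19 of 20 in IMQ skin, with medians of -1.58 and -2.85. Their summed level was 11600 to 26300 CPM in control, 1260 to 4540 CPM in IMQ and 3380 to 9370 CPM in LYS libraries. Adipoq, the hormone adiponectin, was at 595, 875 and 285 CPM in control and 73.1, 139 and 250 CPM in LYS skin (-1.92 ± 0.52, adjusted p = 0.0273). Pck1, an enzyme that adipocytes need to store fat, was at 26.9, 34.4 and 106 CPM against 177 to 456 CPM (-2.56 ± 0.57, adjusted p = 0.0138). The groups did not overlap, and LYS 3 and Control 3 were the nearest. Both calls were lost without Control 1, Control 2 or LYS 2 (adjusted p up to 0.103 and 0.0565). The 16 lower members became 4 without Control 1, 4 without Control 2 and 3 without LYS 2. From LYS 1 to LYS 3 the summed levels rose for fat (3380, 5890 and 9370 CPM), muscle (7750, 11000 and 15100 CPM) and collagen matrix (14400, 22200 and 27300 CPM). Over the same libraries they fell for hair shaft genes (79.1, 67.2 and 38.6 CPM) and cornified envelope genes (34100, 23400 and 19100 CPM). The part of muscle and fat in the dermal, hair and epidermal results was not tested.

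Signalling lists were mixed. Of 27 MAPK cascade and Dusp genes 9 were higher, 2 lower and 12 within 2-fold in LYS skin, against 13 higher and 7 lower in IMQ skin. Mapk14, the p38 alpha kinase, was at 108, 112 and 111 CPM in control, 244, 295 and 270 CPM in IMQ and 210, 204 and 183 CPM in LYS skin (0.85 ± 0.13, adjusted p = 0.00318). Its upstream kinase Map2k3 was at 218, 193 and 154 CPM against 83 to 95.5 CPM (1.07 ± 0.17, adjusted p = 0.00382) and was lower than in IMQ skin, while Map2k6, the other p38 kinase kinase, lay within 2-fold (-0.42 ± 0.22, adjusted p of the bound test = 0.0336). The phosphatase Dusp5 was higher (2.54 ± 0.39), and Dusp10 lower (-1.46 ± 0.22). The 9 higher members became 5 without Control 1, the 2 lower became 1 without Control 1, Control 3 or LYS 1, and the median of 0.094 became -0.042 with library totals only. Among 24 Rap GTPases and regulators 6 were higher and 16 within 2-fold. That was 25% changed and 66.7% within 2-fold, where all genes were 28% and 47.7%. Rap1gap, which switches Rap1 off, was at 18.4, 17.9 and 16.9 CPM against 3.48 to 5.06 CPM in control and 25.3 to 32.1 CPM in IMQ skin (2.05 ± 0.19, adjusted p = 0.00063), and it was lower than in IMQ skin. Rap1a and Rap1b themselves were within 2-fold of control (-0.17 ± 0.16 and 0.39 ± 0.18).

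Targets of the NRF2 and AhR stress sensors were higher for 6 of 17, lower for 1 and within 2-fold for 6. That was 41.2% changed and 35.3% within 2-fold, where all genes were 28% and 47.7%. Slc7a11, the cystine importer, was at 4.54, 2.54 and 8.52 CPM in control and 269, 250 and 49.8 CPM in LYS skin (5.20 ± 0.75, adjusted p = 0.00287). Gclc, which makes glutathione, was lower at 26.7, 25.2 and 21.5 CPM against 44.3 to 60 CPM (-1.10 ± 0.16, adjusted p = 0.00319). The higher members became 2 without Control 1 and 3 without Control 3, those within 2-fold became 3 without Control 2 or LYS 2, and lower members numbered 2 without LYS 3. Immediate early genes were higher for 8 of 13, with Fos at 98.2, 52.6 and 157 CPM against 18.2 to 24.1 CPM (2.25 ± 0.37, adjusted p = 0.00441) and Fosl1 higher by 3.49 ± 0.50. They were higher for 5 without Control 1 or Control 2. Of 17 circadian clock genes 4 were higher, 3 lower and 6 within 2-fold, with Nr1d1 at 14.6, 21.6 and 26.7 CPM against 59.2 to 99.6 CPM (-1.84 ± 0.27, adjusted p = 0.00313) and Cry1 higher by 1.63 ± 0.16. The clock list was 41.2% changed and 35.3% within 2-fold, where all genes were 28% and 47.7%. The lower clock genes numbered 1 without any 1 control library or LYS 2, and the hour of collection was not given.

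Among the genes that IMQ had raised and that lay within 2-fold of control in LYS skin, those with the largest IMQ change were Pde6a, Pla2g3, Arhgef37, Efcab5, Plpp6 and Atp10b, with IMQ log2 fold changes between 1.65 and 1.99. Pla2g3, a secreted phospholipase, was at 3.91, 1.99 and 4.82 CPM in control, 10.2, 14.4 and 15.8 CPM in IMQ and 4.88, 2.99 and 3.27 CPM in LYS skin (0.058 ± 0.37, adjusted p of the bound test = 0.041). Arhgef37 was at 27, 26.7 and 32.6 CPM in control, 71.4, 99.1 and 122 CPM in IMQ and 49.8, 33.9 and 30.4 CPM in LYS skin. Each LYS library was below each IMQ library for these 6 genes. They were picked for a large IMQ rise and a LYS level within 2-fold of control, which favours such a gap. Plpp6, a lipid phosphatase, was at 51.6, 45 and 44.2 CPM in LYS and 27.5 to 35.9 CPM in control skin, so its libraries did not overlap and its adjusted p was 0.0315 at a log2 fold change of 0.53, under the fold threshold. It was called without LYS 3.

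The corresponding genes that IMQ had lowered were Fibin, Hp, Pcsk5, Mmp19, St6galnac5 and Cadm3, with IMQ log2 fold changes from -2.52 to -2.39. Hp, haptoglobin, which binds free hemoglobin, was at 1050, 1300 and 557 CPM in control, 267, 161 and 83.1 CPM in IMQ and 752, 1090 and 880 CPM in LYS skin (-0.091 ± 0.32, adjusted p of the bound test = 0.027). Fibin, a secreted factor, was at 8.5, 10.4 and 9.98 CPM in control, 2.55, 1.79 and 0.659 CPM in IMQ and 7.4, 5.82 and 13.7 CPM in LYS skin. Mmp19, a matrix metalloprotease, was at 45.5, 66.8 and 42 CPM, 14.2, 7.89 and 6.67 CPM and 32.9, 32.5 and 51.4 CPM in the same order. LYS libraries overlapped with control and not with IMQ for all 3, a pattern that the rule that named them favours.

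**Figure D5:**
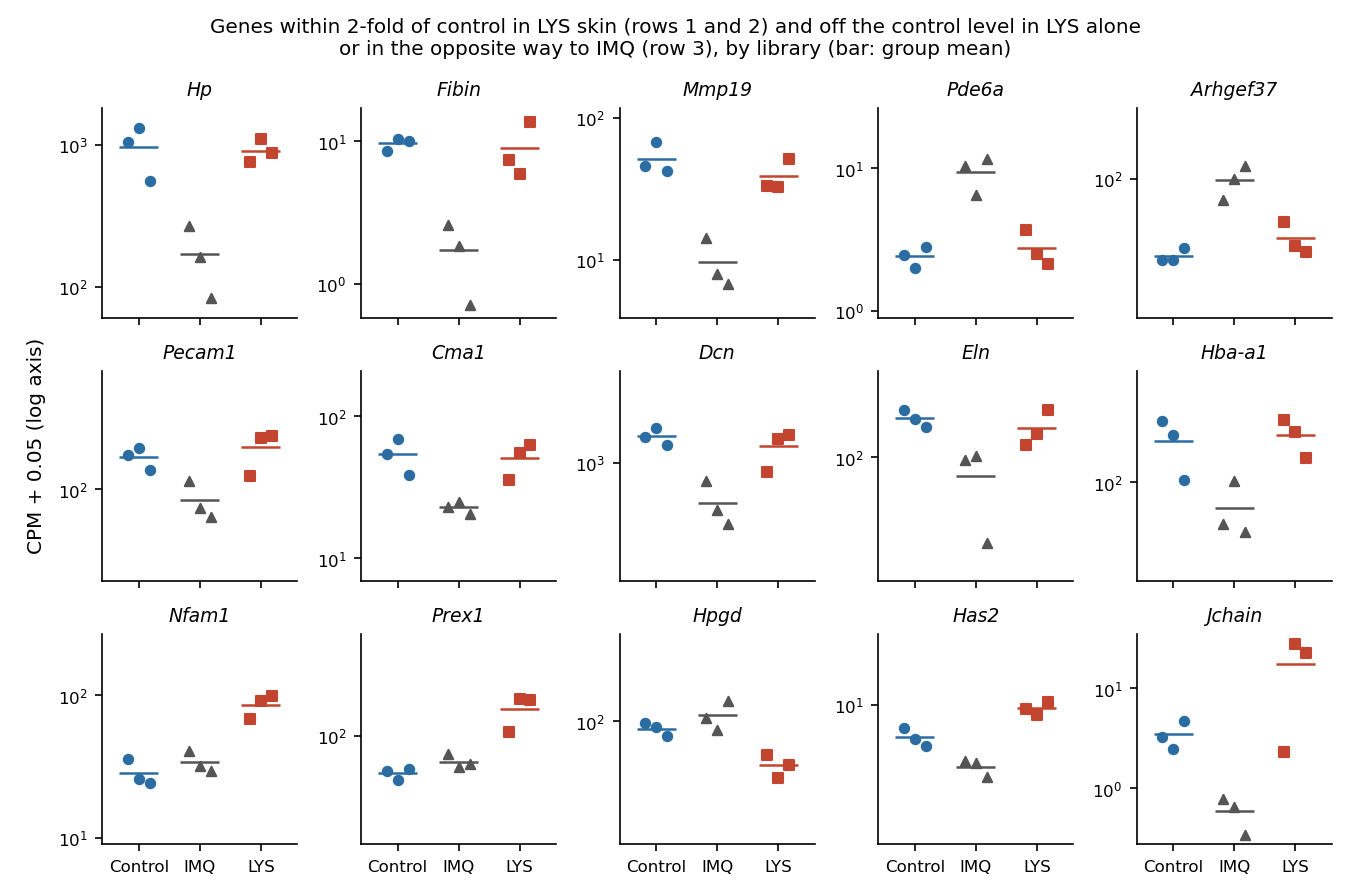
Each panel gives the CPM of 1 gene in the 9 libraries on a log axis after adding 0.05 CPM, with blue circles for control, grey triangles for IMQ and red squares for LYS, and a bar at the group mean. In the upper 10 panels the LYS and control libraries overlap, and in the lower 5 panels the LYS libraries lie off both other groups except LYS 1 of Jchain, which is below control.

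A set of 204 genes was changed in LYS skin, not called in IMQ skin (adjusted p at or over 0.05), and called between LYS and IMQ skin, of which 169 were higher and 35 lower in LYS skin. Nfam1, a signalling receptor of immune cells, was at 35.6, 26 and 24.3 CPM in control, 40.4, 31.9 and 29.4 CPM in IMQ and 68, 91.2 and 99.2 CPM in LYS skin (1.59 ± 0.20, adjusted p = 0.00186). Prex1, a Rac exchange factor of neutrophils, was at 106, 181 and 177 CPM in LYS skin against 49.2 to 57.9 CPM in control (1.50 ± 0.21, adjusted p = 0.00271). Wdfy4, which dendritic cells need for cross-presentation, was at 29.9, 35.5 and 34.5 CPM against 17.1 to 22.1 CPM (0.82 ± 0.15, adjusted p = 0.00744). The LYS libraries were above both other groups for these 3. They were picked by their calls in both comparisons, so this gap is no separate result. Trim47 of the tripartite motif family was higher by 1.02 ± 0.21 (adjusted p = 0.011), a call lost without Control 1 (adjusted p = 0.0616).

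Among the lower genes of this set, Hpgd, the dehydrogenase that inactivates prostaglandins, was at 97.2, 91.1 and 78.6 CPM in control, 106, 86.8 and 139 CPM in IMQ and 57.9, 40.2 and 49.2 CPM in LYS skin (-0.85 ± 0.17, adjusted p = 0.00895). Fzd10, a Wnt receptor, was at 32.9, 22.4 and 18.8 CPM in LYS skin against 57.6 to 90.5 CPM in control (-1.57 ± 0.26, adjusted p = 0.00441). Pex3, which starts the assembly of peroxisomes, was at 20.7, 17.5 and 19.1 CPM against 29.3 to 34.6 CPM (-0.73 ± 0.14, adjusted p = 0.00805). No LYS library reached the range of control or IMQ for these, which were picked by their calls in both comparisons. Rapgef4os3, an opposite-strand transcript of the Rapgef4 locus, was at 0.349, 0.282 and 0.172 CPM against 1.43 to 2.27 CPM (-2.68 ± 0.42, adjusted p = 0.00403), and the library kit does not mark strand. The whole set was sensitive to its libraries, with 507 genes without LYS 1, 90 without Control 1, 102 without Control 2, 111 without Control 3, and 0 without LYS 2, LYS 3, IMQ 2 or IMQ 3 by the edgeR tests.

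The 10 genes changed in opposite directions were Cd83, Vsir, Has2, Gfra1, Svep1, Tmem176b, Rassf4, Sned1 and Jchain, lower in IMQ and higher in LYS skin, and Gm20627, higher in IMQ and lower in LYS skin. Has2, the hyaluronan synthase of fibroblasts, was at 6.81, 5.68 and 5.11 CPM in control, 3.95, 3.87 and 3.08 CPM in IMQ and 9.28, 8.47 and 10.4 CPM in LYS skin (0.68 ± 0.19, adjusted p = 0.0319). Gfra1, a receptor for glial cell line-derived neurotrophic factor, was at 15.4, 25.5 and 23.4 CPM in LYS skin against 8.86 to 11 CPM in control and 3.35 to 5.28 CPM in IMQ skin (1.12 ± 0.22, adjusted p = 0.00815). Vsir, an inhibitory checkpoint of myeloid and T cells, was at 88.3, 166 and 192 CPM against 57.1 to 93 CPM in control (0.98 ± 0.30, adjusted p = 0.041), with LYS 1 inside the control range. Gfra1 kept its call in all alternatives, while the calls of the other 9 were lost in 4 to 8 of the 11 alternatives, among them leaving out Control 1 (adjusted p up to 0.183 for Cd83).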

How the data were processed

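RNA sequencing of back skin covered 9 libraries in 3 groups of 3, taken from the labels, which do not say that libraries came from separate animals, so p-values measure the spread between these samples. The authors deposited gene counts and FPKM values, and the submitters' processing notes name HISAT2, HTSeq 0.13.5 and GRCm38. Counts were tested with edgeR 4.0.16 (TMM, filterByExpr, quasi-likelihood test, Benjamini-Hochberg), with only the compared groups in each fit, except that LYS minus IMQ was fitted on all 9 libraries. Changed genes had an adjusted p under 0.05 and a log2 fold change beyond 0.58 in either direction. The level of control was tested with one-sided tests against both bounds, planned at 0.58 and, since 0 genes passed, read at the alternative bound of 1. CPM values were TMM-scaled over the 9 libraries. FPKM values were not tested.

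Library totals were 14658645 to 19609878 counts, and the median SE of a log2 fold change was 0.217. Within-group library pairs differed by a chi-square per degree of freedom of 16.9 to 100, so no library was a copy of another. For genes with 3 or fewer counts over a group, folds were set against a floor of 3 counts over the group or given with an exact 95% interval, which cover counting error only. Named genes were the 6 largest rises and falls without overlap at a mean of 1 CPM or more, the 6 largest IMQ rises and falls among genes within 2-fold of control, the 4 higher and 4 lower genes with the smallest LYS minus IMQ p among those not changed by IMQ, and the key members and largest rise and fall of each of 35 lists. The comparison and the lists were chosen with earlier results of these data known. All 840 listed or named genes were found in GENCODE M21, and promoters came from RefSeq (GRCm38.p6). The scripts were tested on simulated data. Alternatives used DESeq2 1.42.0 with R 4.3.3, other scalings, no filter, a replicate block and leaving out each library, and figures used matplotlib 3.10.9 with Python 3.11.15. Some listed genes are not reported here.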

Additional observations from a re-analysis of the deposited data

How the results depend on the processing

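The 4476 changed genes became 2910 with an absolute log2 fold change over 1, 5104 by DESeq2 and 2579 to 5072 when 1 library was left out. The 3809 genes changed by IMQ and still changed in LYS skin became 2473 with a log2 fold change over 1 and 2284 to 4431 when 1 library was left out. The count of genes at the control level by the bound of 0.58 was 0, against 91 in a fit of all 9 libraries, 618 without adjustment for multiple tests and 2196 with the bound of 1. In data simulated at this size no unchanged gene passed the bound of 0.58. The 2196 genes became 1369 to 3073 when 1 library was left out. The 204 genes changed in LYS and not in IMQ skin became 103 with a log2 fold change over 1, 0 with the LYS minus IMQ contrast fitted on 6 libraries, and 0 to 507 when 1 library was left out. With the replicate block the changed genes numbered 3126, those still changed 2796, those within 2-fold 1777 and those changed in LYS and not in IMQ skin 0. The labels do not say whether library numbers mark shared animals or days. Deviations of same-numbered control and LYS libraries had correlations of -0.123, 0.0198 and -0.385. Those of differently numbered libraries ran from -0.301 to 0.379. With 3 libraries a group, these values cannot exclude a pairing. For 194 named genes no setting reversed a call of LYS against control. Of these genes, 140 kept their side of the threshold in all settings run for them. The fold change of uncalled genes near 0, such as Tlr7, Hp and Irf7, changed sign in some settings. Calls of IMQ against control and of LYS minus IMQ are not part of these counts. Depth limits statements on cytokine genes with few counts, such as Il17a, Il22 and Il23a. The cause of these shifts was not tested.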
